A study of Arabidopsis thaliana with 42 samples.

Results

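Mitotic cyclins, B-type cyclin-dependent kinases and genes of late mitosis were followed in seedlings of Arabidopsis thaliana through 10 genes, named by locus, out of 34262 features in the expression table. The set holds the cyclins CYCA1;1 (AT1G44110), CYCB1;1 (AT4G37490), CYCB1;2 (AT5G06150), CYCB1;4 (AT2G26760) and CYCB2;1 (AT2G17620). It holds the kinases CDKB1;1 (AT3G54180), CDKB2;1 (AT1G76540) and CDKB2;2 (AT1G20930), the cytokinesis syntaxin SYP111 (KNOLLE, AT1G08560) and CDC20.1 (AT4G33270). The rule names loci and sets no threshold on a measured value. Cyclins are regulatory partners that activate cyclin-dependent kinases at set points of the cell cycle, and A-type and B-type cyclins act around entry into mitosis. B-type kinases are particular to plants and peak from G2 to mitosis. CDC20 proteins activate the anaphase-promoting complex (APC/C), the ubiquitin ligase that marks mitotic cyclins for destruction, and KNOLLE is the syntaxin through which vesicles fuse into the cell plate that divides a plant cell. In a seedling these RNAs come mainly from the few dividing cells of meristems and young organs, and many of them share MYB3R-bound promoter elements that time their transcription to G2 and mitosis.

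RNA-seq was made from total RNA of whole seedlings, 14 days old and harvested at ZT-6 in the labels' notation, in 6 groups of 2 libraries each. All groups are of the Col-0 ecotype. They are wild type (WT) at 22 °C and at 27 °C, vil1 (vil1-1 in the study's design text) at 22 °C and at 27 °C, arp6 at 22 °C, and the double mutant arp6vil1 at 22 °C. VIL1, listed as VRN5, is a PHD-finger protein that works with Polycomb repressive complex 2, and ARP6 belongs to SWR1, the chromatin remodeller that puts the histone variant H2A.Z into nucleosomes. The design asks how warmth changes the transcriptome, whether the change needs VIL1, and how losing VIL1 alters the transcriptome of arp6. The labels name long and short days without saying which served for RNA, and nothing says that replicates came from separate cultures, so p-values measure only the spread between these libraries. The series also holds 30 ChIP-seq samples, not analysed here.

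The values are RPKM, reads per kilobase of a gene's genomic span (introns included) scaled to the depth of each library. Library depth, worked out from the table, was 52.5 to 102.8 M reads. The ARP6 gene averaged 12.8 to 14.2 RPKM in the WT and vil1 groups, 0.303 in arp6 and 0.756 in arp6vil1. VRN5 averaged 5.26 in vil1 and 6.69 in WT at 22 °C, so its level does not check the vil1 label. Both groups without ARP6 have libraries unlike the WT and vil1 ones. The arp6 libraries list 6651 and 6566 features at 0, where every other library lists between 104 and 194. The median nuclear coding gene stood at 3.74 to 4.97 RPKM in the WT and vil1 libraries, at 3.34 to 3.43 in arp6 and at 1.79 to 1.94 in arp6vil1. The 10th percentile of coding genes was 0.660 to 1.14 RPKM in WT and vil1, 0.677 to 0.705 in arp6vil1 and 0 in arp6, which gives a scale for the lowest values below. For the 10 genes, contrasts with arp6 or arp6vil1 are therefore also given on other scalings. For neighbouring genes, tissue markers and some listed genes, those contrasts are given on the deposited scale alone.

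All 10 genes passed the filter of the test, 1 RPKM or more in at least 2 libraries, with 71 to 1208 reads each per library. In WT at 22 °C, per kilobase of span, SYP111 was highest at 4.26 ± 0.287 RPKM (SD, n = 2). CDKB1;1 followed at 3.24 ± 0.364, and CYCB2;1 was lowest at 1.38 ± 0.447. The highest was therefore near the median coding gene and the lowest not far above the 10th percentile. That cyclin reached 1 RPKM in 8 of 12 libraries and CYCB1;1 in 11, and the other genes reached it in all 12. Summed over the 10 genes, RPKM was 24.6 and 27.5 in WT at 22 °C, 37.9 and 34.9 in WT at 27 °C, 25.6 and 26.7 in vil1 at 22 °C, and 27.5 and 25.4 in vil1 at 27 °C. It was 43.9 and 39.2 in arp6 and 20.0 and 18.3 in arp6vil1. The sum was thus high in warm WT and in arp6 and low in the double mutant, and its higher values rest mostly on SYP111, CDC20.1 and, in arp6, CDKB2;1.

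**Figure D1:**
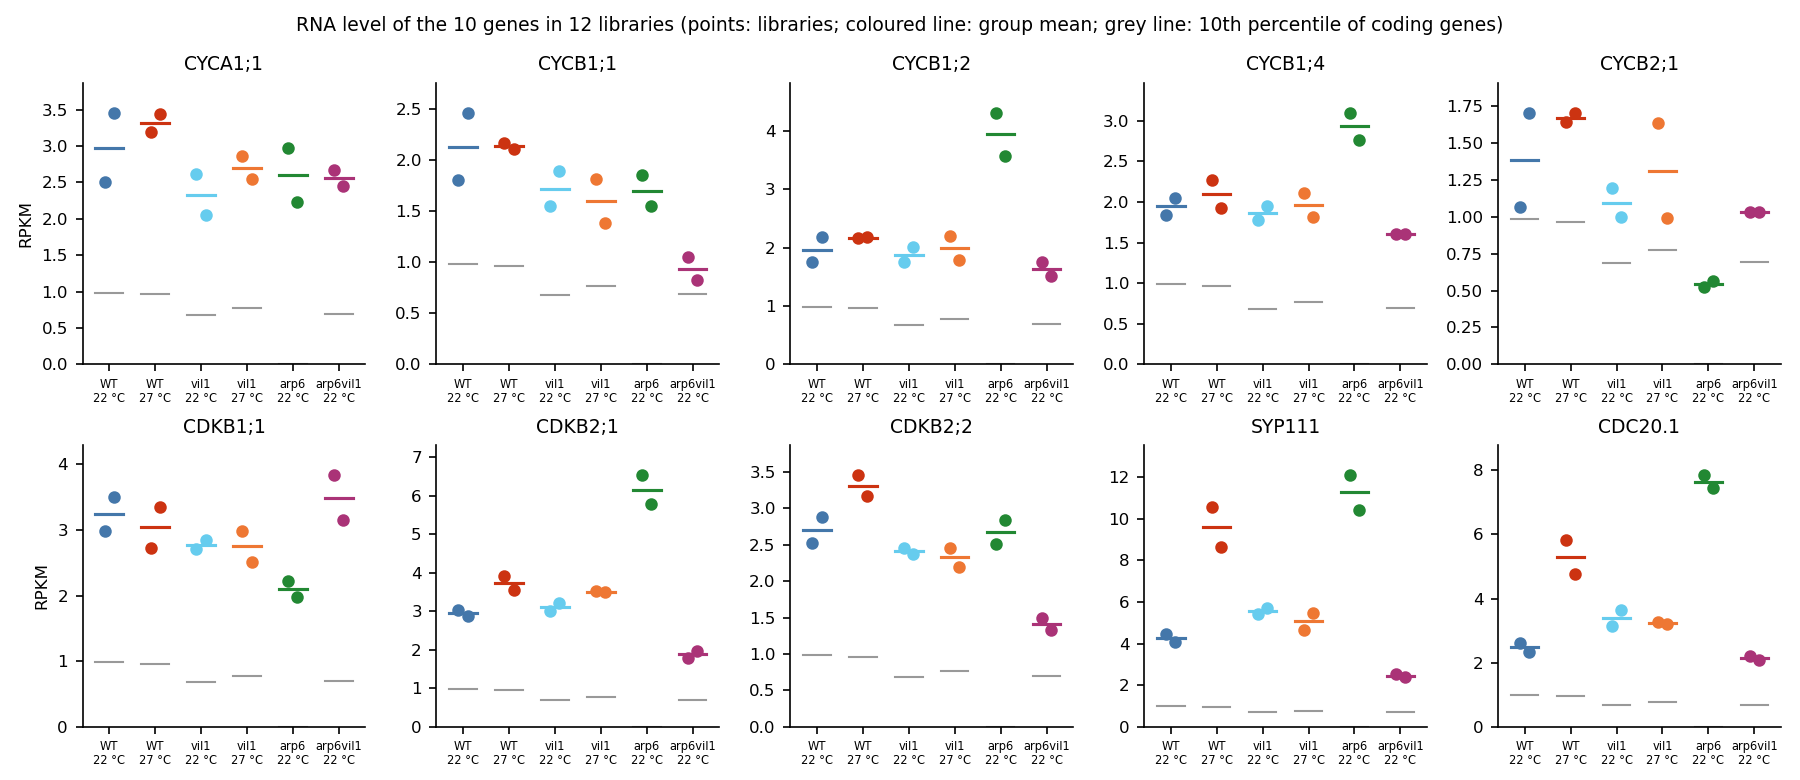
RNA level of each gene in RPKM (linear axis from 0, its own scale in each panel) in the 12 libraries by group, where points are libraries, coloured lines group means and grey lines the group's 10th percentile of nuclear coding genes, which is 0 in arp6. SYP111 and CDC20.1 are high in WT at 27 °C (8.66 and 10.6 RPKM, and 4.76 and 5.82) and in arp6. In the cyclin panels the points of the cool and warm libraries overlap within WT and within vil1. At 27 °C the WT points of CYCA1;1, CYCB1;1 and CYCB2;1 lie above the vil1 points, without passing the test. Those of CYCB1;2 and CYCB1;4 overlap.

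Warmth in WT raised the cytokinesis syntaxin and the APC/C activator, and no cyclin or kinase of the set passed the test. SYP111 stood at 4.47 and 4.06 RPKM at 22 °C and at 10.6 and 8.66 at 27 °C. CDC20.1 stood at 2.63 and 2.33 RPKM at 22 °C and at 5.82 and 4.76 at 27 °C. For both genes each warm library lay above each cool one. On the log2(RPKM + 1) scale SYP111 rose by 1.01 (SE 0.12, adjusted p = 0.000888) and CDC20.1 by 0.85 (SE 0.11, adjusted p = 0.00125), by limma with Benjamini-Hochberg adjustment over 31454 features. The 2 genes higher and 0 lower compare with 16.9 percent of all features called higher and 3.61 percent called lower in this contrast, and the median of all features was 0.09. Both calls held under every alternative setting that tested the gene and with any 1 library left out. In whole seedlings, more dividing cells and more RNA per dividing cell cannot be told apart.

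The B-type kinases of the CDKB2 pair were next in size, without passing. CDKB2;1, at 3.02 and 2.89 RPKM at 22 °C, was at 3.90 and 3.55 at 27 °C, a log2 difference of 0.26 (SE 0.09, adjusted p = 0.0798). CDKB2;2 was at 2.53 and 2.89 RPKM at 22 °C and at 3.45 and 3.17 at 27 °C, a log2 difference of 0.22 (SE 0.10, adjusted p = 0.175). The warm libraries lay above the cool ones for both kinases. CDKB1;1, a B-type kinase known for its part in the divisions that make stomata, was at 2.99 and 3.50 RPKM against 2.73 and 3.35, and the groups overlapped. The cyclins stayed close to their cool level: CYCB1;1, a widely used reporter of cells in G2 and mitosis, averaged 2.13 RPKM at 22 °C and 2.14 at 27 °C. For the 5 cyclins the log2 differences ran from 0.01 for CYCB1;1 to 0.18 for CYCB2;1, with SEs of 0.11 to 0.16 and adjusted p from 0.545 to 0.98. The last of these gave 1.06 and 1.70 RPKM in the cool libraries and 1.64 and 1.70 in the warm ones, so its cool replicates spread more widely than the groups differ. CYCA1;1 gave 2.51 and 3.45 RPKM against 3.19 and 3.44, and CYCB1;2 gave 1.75 and 2.19 against 2.17 and 2.18, with overlap in both.

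In vil1 none of the 10 genes passed at 27 against 22 °C, and 0 had an unadjusted p under 0.05 in limma, with 2.4 percent of all features called in either direction. SYP111 stood at 5.41 and 5.69 RPKM at 22 °C and at 4.67 and 5.48 at 27 °C. CDC20.1 stood at 3.13 and 3.65 RPKM at 22 °C and at 3.27 and 3.19 at 27 °C. The libraries of both temperatures overlapped for both genes, and the log2 differences were -0.11 (SE 0.12, adjusted p = 0.678) for SYP111 and -0.05 (SE 0.11, adjusted p = 0.856) for CDC20.1. The other 8 genes lay between -0.07 for CYCB1;1 and 0.15 for CYCA1;1.

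Whether the warm response differed between vil1 and WT was tested as the difference of the 2 changes. For SYP111 that difference was -1.12 (SE 0.17), with an unadjusted p of 4.41e-05 and an adjusted p of 0.129 in limma. For CDC20.1 it was -0.90, with an adjusted p of 0.138. None of the 10 genes passed, 2 had an unadjusted p under 0.05, and 0 percent of the 31454 features passed, so the lack of a call is shared by the whole table. Without the first WT library at 22 °C both passed, SYP111 at an adjusted p of 0.0153 and CDC20.1 at 0.0190. That setting leaves 1 WT library at 22 °C, assumed to vary like the other groups, and it called 556 features higher and 1256 lower where none passed with all libraries. The other 8 differences ran from -0.26 for CDKB2;2 to 0.06 for CDKB1;1.

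At 22 °C vil1 did not differ from WT by the test in any of the 10 genes, with 4.1 percent of all features called. SYP111 (0.32, adjusted p = 0.117) and CDC20.1 (0.33, adjusted p = 0.0893) were the 2 with an unadjusted p under 0.05. At 27 °C the same pair passed as lower in vil1. SYP111 was at 4.67 and 5.48 RPKM in vil1 against 10.6 and 8.66 in WT, and fell by 0.80 on the log2 scale (SE 0.12, adjusted p = 0.0112). CDC20.1 was at 3.27 and 3.19 RPKM against 5.82 and 4.76, and fell by 0.57 (SE 0.11, adjusted p = 0.0404). The libraries did not overlap for either gene. The 2 genes lower compare with 0.585 percent of all features called lower. All 10 log2 differences were negative, from -0.80 to -0.06, where the median of all features was -0.12. CDKB2;2 also had an unadjusted p under 0.05, without passing (-0.38, adjusted p = 0.149 in limma). It was at 2.46 and 2.19 RPKM in vil1 against 3.45 and 3.17 in WT, without overlap. The comparisons that use WT at 27 °C share its 2 libraries, and those that use WT or vil1 at 22 °C share theirs, so the contrasts above are not independent of each other. The CDC20.1 call is weak, since it held in 3 of 11 other settings and in 3 of 12 fits with 1 library left out. The SYP111 call held in 9 of 12 settings, and was lost without the first WT library at 27 °C (adjusted p = 0.0863) or without either vil1 library at 27 °C (0.0923 and 0.0532).

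**Figure D2:**
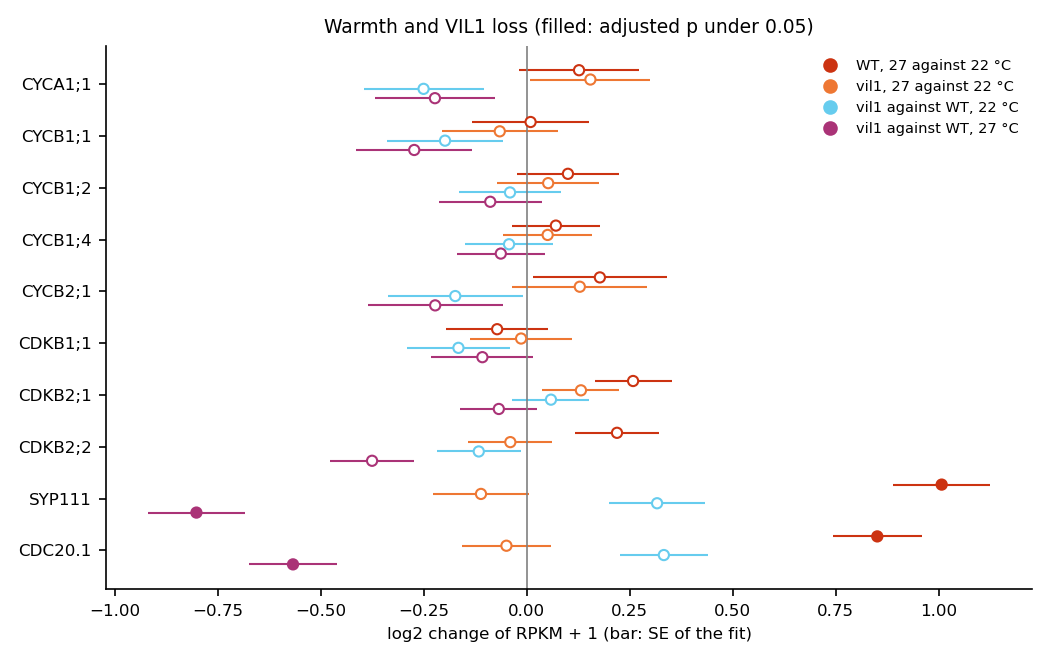
Log2 change of RPKM + 1 for the 10 genes in the 4 contrasts among WT and vil1, with bars for the SE of the limma fit, where filled points have an adjusted p under 0.05. SYP111 (1.01) and CDC20.1 (0.85) stand to the right in warm WT and to the left (-0.80 and -0.57) for vil1 against WT at 27 °C, while the cyclins lie between -0.27 and 0.18 in all 4 contrasts.

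The SYP111 values carry a limit of the annotation. Its span of 1475 bases on chromosome 1 shares 464 bases, or 31.5 percent, with NPQ1, which encodes the violaxanthin de-epoxidase of chloroplasts. The counting is not stated to use strand, so reads of the shared stretch may be counted for both genes. If NPQ1 reads were spread evenly over its span, the NPQ1 level times the shared fraction would give 4.27 and 2.92 RPKM of SYP111 in WT at 22 °C, against SYP111 values of 4.47 and 4.06. In WT at 27 °C it would give 5.88 and 4.90 against 10.6 and 8.66. In vil1 it would give 5.35 and 5.84 at 22 °C and 5.11 and 6.38 at 27 °C, above the SYP111 value in 3 of the 4 libraries. In arp6 it would give 9.60 and 9.41 against 12.1 and 10.4, and in arp6vil1 1.31 and 1.19 against 2.55 and 2.37. NPQ1 itself rose in warm WT (0.56, adjusted p = 0.0342), but that call was lost in 5 of 12 settings, and in warm vil1 it gave 0.03 (adjusted p = 0.949). NPQ1 was at 0.08 (adjusted p = 0.809) for vil1 against WT at 27 °C, where SYP111 fell. In the contrasts with arp6 and arp6vil1 described below, NPQ1 moved in the same direction as SYP111 and by more, at 1.35 for arp6 against WT, -2.65 for arp6vil1 against arp6, -1.92 against vil1 and -1.30 against WT, and -3.27 for the difference of ARP6 effects, and it passed in all 5. How much of the SYP111 count comes from NPQ1 was not tested.

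CDC20.1 overlaps no other annotated gene but lies beside CDC20.2, a near copy, between which a counter could split reads differently. CDC20.2 averaged 2.77 RPKM in WT at 22 °C and 5.58 at 27 °C, 3.04 and 3.03 in vil1 at the same temperatures, 5.79 in arp6 and 1.84 in arp6vil1. It rose in warm WT by 0.81 (SE 0.10, adjusted p = 0.00119) under all 11 other settings, and in warm vil1 its difference rounded to 0.00 (adjusted p = 0.988). At 27 °C it fell by 0.71 in vil1 against WT (adjusted p = 0.00949), a call lost under quantile normalization and with only those 2 groups in the fit. Overlaps of the kinases with neighbours are smaller, between 44 bases for CDKB2;1 and 192 for CDKB2;2. AT3G54190, which shares 71 bases with CDKB1;1, rose in warm WT (0.70, adjusted p = 0.00747), a call lost in 4 of 12 settings. In arp6 AT3G54190 rose by 1.05, while the kinase it overlaps did not.

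**Figure D3:**
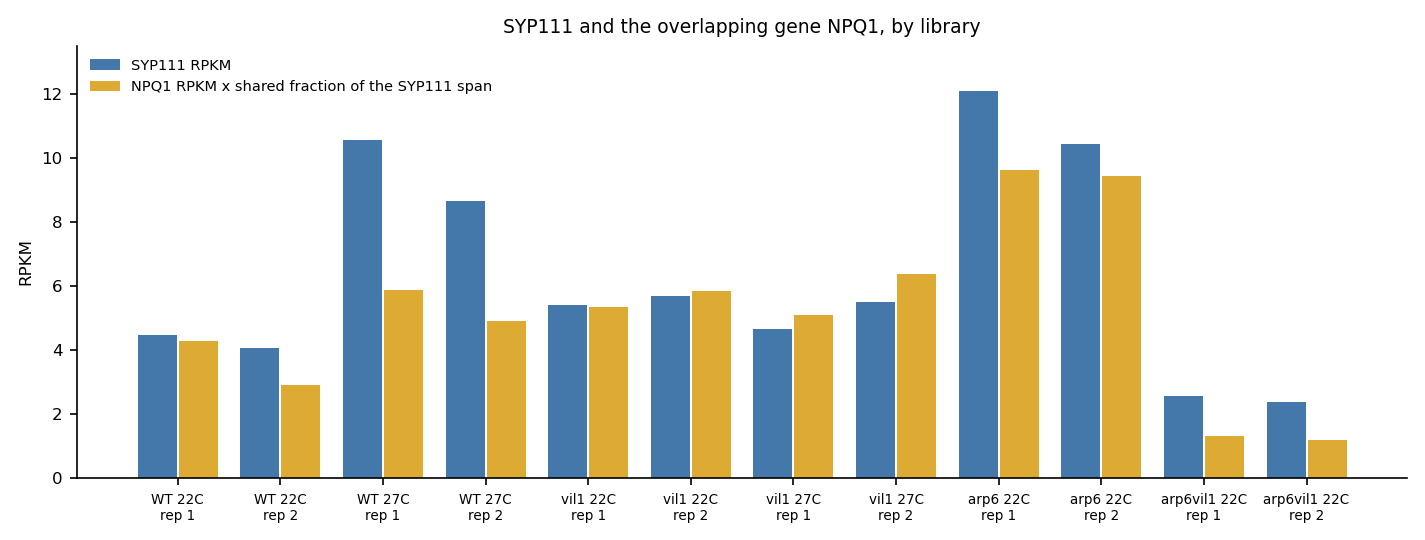
SYP111 RPKM (blue) and the NPQ1 RPKM multiplied by the fraction of the SYP111 span that the NPQ1 span covers (yellow), in each of the 12 libraries, on a linear axis from 0. Blue exceeds yellow most in WT at 27 °C (10.6 against 5.88 and 8.66 against 4.90), and yellow is the higher bar in 3 vil1 libraries.

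With ARP6 lost at 22 °C, 5 of the 10 genes were higher and 1 cyclin and 1 kinase were lower on the deposited scale. The lower calls depend on that scale, with 9 higher and 0 lower under quantile normalization, and 6 higher and 0 lower under median centring, with the gene-length trend removed or with background subtracted. CDC20.1 rose from 2.63 and 2.33 RPKM in WT to 7.84 and 7.44 in arp6, a log2 change of 1.31 (SE 0.11, adjusted p = 2.63e-06). SYP111 rose from 4.47 and 4.06 to 12.1 and 10.4 RPKM, a log2 change of 1.22 (SE 0.12, adjusted p = 6.86e-06). CDKB2;1 rose from 3.02 and 2.89 to 6.53 and 5.78 RPKM, a log2 change of 0.85 (adjusted p = 1.57e-05). Among the cyclins, CYCB1;2 rose from 1.75 and 2.19 to 4.31 and 3.58 RPKM (0.73, adjusted p = 0.000287) and CYCB1;4 from 1.84 and 2.05 to 3.09 and 2.77 (0.41, adjusted p = 0.00444). The arp6 libraries lay above the WT libraries for all of these genes, and each call held in every other setting that tested the gene. No setting separated SYP111 reads from those of NPQ1, here or in the contrasts that follow.

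CYCB2;1 was at 1.06 and 1.70 RPKM in WT and at 0.527 and 0.564 in arp6 (-0.61, adjusted p = 0.00528), and turned to a call of higher under quantile normalization (0.40). CDKB1;1 was at 2.99 and 3.50 RPKM in WT and at 2.22 and 1.97 in arp6 (-0.45, adjusted p = 0.0059), and gave 0.08 under quantile normalization and 0.14 with the gene-length trend removed, neither of them a call. CYCA1;1 (-0.14), CYCB1;1 (-0.21) and CDKB2;2 (-0.01) did not pass on that scale, but CDKB2;2 passed as higher in 4 of 10 other settings (0.34 to 0.48) and CYCB1;1 did so under quantile normalization (0.47). The 5 genes higher and 2 lower compare with 20.6 percent of all features called higher and 61.8 percent called lower. The median change of all features was -0.64, so the median of the 10 genes, 0.20, lies above it. The deposited levels of close relatives can be set side by side. CYCB1;2 averaged 1.97 RPKM in WT and 3.94 in arp6, where CYCB1;1 averaged 2.13 and 1.70. The first of the CDKB2 pair averaged 2.95 RPKM in WT and 6.15 in arp6, where the second averaged 2.71 and 2.67. No test was run between genes.

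On the deposited scale, the genes that were high in arp6 were lower in the double mutant than in arp6. Against arp6, SYP111 fell by 1.82 on the log2 scale, from 12.1 and 10.4 RPKM to 2.55 and 2.37 (SE 0.12, adjusted p = 2.14e-07). CDC20.1 fell by 1.46, to 2.20 and 2.08 RPKM (SE 0.11, adjusted p = 5.62e-07). CDKB2;1 fell by 1.31, to 1.79 and 1.97 RPKM (SE 0.09, adjusted p = 4.4e-07). CYCB1;2 fell by 0.90, to 1.76 and 1.51 RPKM (SE 0.12, adjusted p = 7.2e-05). These 4 falls held in every other setting that tested the gene and with any 1 library left out. Their group means in the double mutant, 2.46, 2.14, 1.88 and 1.64 RPKM in this order, were below those of WT at 22 °C on the deposited scale. Under median centring these genes were above WT, at 0.24, 0.70, 0.39 and 0.68 in the same order, and SYP111 did not pass. CYCB1;4 (-0.59, to 1.61 in both libraries), CDKB2;2 (-0.61, to 1.49 and 1.32 RPKM) and CYCB1;1 (-0.48, to 1.05 and 0.827 RPKM) also fell. Each lost its call under median centring, where the values were -0.12, -0.14 and -0.01. CYCB1;4 also lost it under quantile normalization (-0.17). CYCB1;1 also lost it with the gene-length trend removed (-0.13), and kept it in 10 of 12 fits with 1 library left out.

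CDKB1;1 and CYCB2;1 went the other way. CDKB1;1 rose from 2.22 and 1.97 RPKM in arp6 to 3.83 and 3.15 in arp6vil1 (0.53, adjusted p = 0.00253), and lost the call in 1 of 10 settings, with background subtracted. The cyclin rose from 0.527 and 0.564 to 1.03 RPKM in both libraries (0.40, adjusted p = 0.0451), and kept the call in 6 of 10 settings and in 4 of 12 fits with 1 library left out. It turned to -0.08 under quantile normalization and -0.20 with background subtracted. CYCA1;1 did not differ by the test (-0.01, adjusted p = 0.962), although it was called higher under median centring, quantile normalization and removal of the length trend. The 7 genes lower and 2 higher compare with 38 percent of all features called lower and 41.1 percent called higher. The median over all features was 0.12 and over the 10 genes -0.60.

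How arp6vil1 compared with WT depended on how the libraries were scaled. On the deposited RPKM scale 4 genes were lower and 0 higher: CYCB1;1 (-0.69, adjusted p = 0.00139), CDKB2;2 (-0.62, adjusted p = 0.000298), SYP111 (-0.60, adjusted p = 0.000936) and CDKB2;1 (-0.46, adjusted p = 0.00134). That count compares with 61.2 percent of all features called lower and a median of -0.54. Under median centring 8 of the 10 genes were called higher and 0 lower, and under quantile normalization 7 were higher and 0 lower, so no direction against WT is given for the set. Against vil1 at 22 °C, those 4 genes (-0.92 to -0.49) and CDC20.1 (-0.48) were lower, with adjusted p of 4.94e-05 to 0.0116 in limma and 50.8 percent of all features called lower. Of these 5, 4 turned positive under median centring (0.22 to 0.25), and SYP111 gave -0.19 without passing. Of all 10 genes 7 were then higher and 0 lower, and with the gene-length trend removed 5 were higher and 1 lower.

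The effect of losing ARP6 was also tested for a difference between plants with and without VIL1, as the change from vil1 to arp6vil1 minus the change from WT to arp6. It passed as negative for 6 genes, from -2.14 for SYP111 (SE 0.17) and -1.79 for CDC20.1 to -0.49, and as positive for 2, at 0.70 and 0.57. Adjusted p of these 8 ran from 1.66e-06 to 0.0443, against 32.7 percent of all features called lower and 42.5 percent called higher. CYCB1;1 (-0.28) and CYCA1;1 (0.24) did not pass. The 4 largest differences held in every other setting that tested the gene. The 2 libraries of each group serve in all of these contrasts, and the group medians of coding genes differ as given above.

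**Figure D4:**
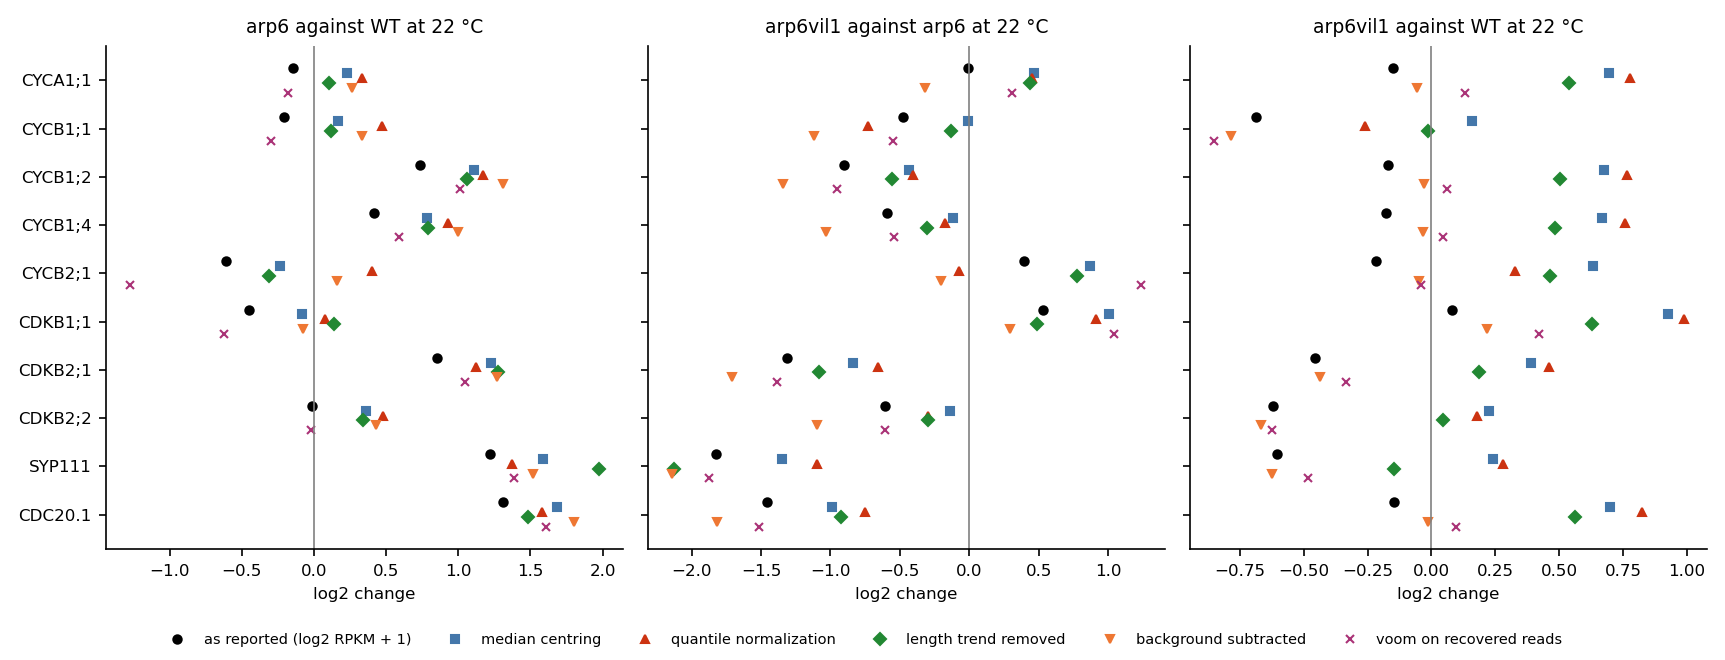
Log2 change of the 10 genes in 3 contrasts of the arp6 and arp6vil1 libraries, each under the reported fit and 5 other scalings or tests. The 5 genes called higher in arp6 stay to the right of 0 in the first panel and to the left in the second, while in the panel of arp6vil1 against WT most genes change side with the scaling.

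The wider machinery was read from 11 lists of cell cycle genes, 129 genes beside the 10, of which 126 were tested. In warm WT 19 were higher and 4 lower, close to the share of all features, and 6 were higher and 9 lower under quantile normalization. The cytokinesis list gave 4 of 19 higher and 0 lower, near the 16.9 percent of all features called higher. NPSN11, a SNARE that binds KNOLLE, rose to 8.90 RPKM (0.72, SE 0.11, adjusted p = 0.0027) in all 12 other settings. SNAP33, another SNARE of the complex (0.64), and DRP1A, a dynamin of the cell plate (0.54), passed on the deposited scale but in 8 of 12 other settings. None of the 14 other A-type and B-type cyclins passed, nor did any of the 12 spindle and mitotic kinase genes. In the DREAM list, MYB3R1, an activator of G2 and M genes, was at 0.40 and TSO1 at 0.38, and both lost the call under quantile normalization, median centring and removal of the length trend. The replicative histone HTR2 fell by 0.53 (38.4 to 26.3 RPKM), in 11 of 12 settings, and 3 of 5 genes of its list were lower. The inhibitor KRP1, which blocks cyclin-dependent kinases, fell by 0.51 (to 14.0 RPKM).

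In warm vil1 1 of the 126 was higher, MCM3 of the replication helicase (0.49), and 1 lower, HTR2 (-0.43). In that contrast 2.4 percent of all features were called in either direction. For vil1 against WT at 27 °C, where 0.585 percent of all features were called lower, 0 were higher and 6 lower. They include AUR2, a mitotic histone kinase of the Aurora family, which fell by 0.83 (6.67 to 3.31 RPKM, SE 0.10, adjusted p = 0.0056). AUR2 was lower in vil1 at 22 °C as well, by 0.75 (5.14 to 2.64 RPKM, adjusted p = 0.0093).

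In arp6 the lists did not move as 1 block. Of the 126, 34 were higher and 65 lower on the deposited scale, against 20.6 percent of all features higher and 61.8 percent lower, and 58 were higher and 20 lower under quantile normalization. The counts of single lists below stand against the same shares. DNA replication genes gave 12 of 19 higher and 6 lower, and the lower calls went to 0 under quantile normalization. RNR1, the large subunit of ribonucleotide reductase, went from 3.08 to 18.7 RPKM (2.27, SE 0.13, adjusted p = 2.8e-07), and MCM2 from 1.71 to 6.22 (1.41). The cytokinesis list gave 8 higher and 5 lower of 19, but 5 and 8 with the length trend removed. KEU (KEULE), the Sec1 protein that binds KNOLLE, rose from 3.64 to 9.16 RPKM (1.13, SE 0.11, adjusted p = 7.7e-06), and NPSN11 rose by 0.85. The chromosomal protein 3xHMG-box2 rose from 2.87 to 13.6 RPKM (1.90), and the retinoblastoma homologue RBR1 from 3.04 to 8.34 (1.21). In the other direction, AUR2 fell from 5.14 to 0.917 RPKM (-1.68), the kinase subunit CKS1 from 31.9 to 14.8 (-1.05), and KRP1 to 7.90 RPKM (-1.26). CKS1 lost its call with the length trend removed. Of the 14 other A-type and B-type cyclins, 9 were lower and 0 higher, near the 61.8 percent of all features called lower.

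In arp6vil1 against arp6, 65 of the 126 were lower and 18 higher, against 38 percent of all features lower and 41.1 percent higher, and under median centring 44 were lower and 53 higher, so the count gives no firm direction. The genes just named fell under every setting that tested them: RNR1 by 2.91 (to 1.61 RPKM), 3xHMG-box2 by 2.73 (to 1.18), KEU by 2.18 (to 1.24), NPSN11 by 2.09 (to 1.55), RBR1 by 1.85 (to 1.59) and MCM2 by 1.79 (to 1.09). AUR2 rose by 0.90 (to 2.58 RPKM) and CKS1 by 1.06 (to 32.0), again in every setting that tested them.

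**Figure D5:**
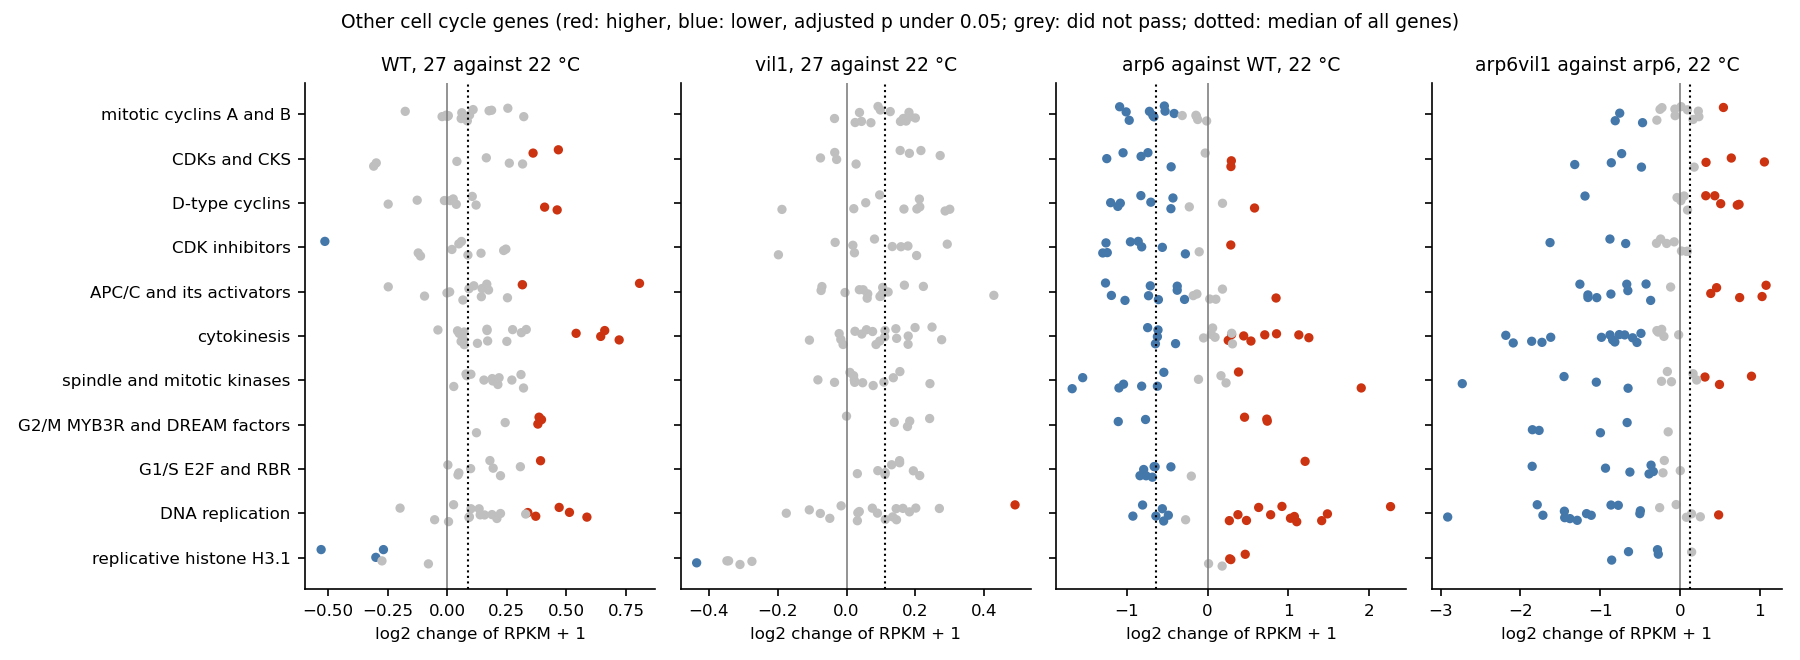
Log2 change of RPKM + 1 of the 126 other tested cell cycle genes by list in 4 contrasts (each panel with its own axis), where red and blue points passed the test, grey points did not, and the dotted line is the median of all features. Replication and cytokinesis genes lie on both sides in arp6. In arp6vil1 against arp6 the cytokinesis list gave 14 lower and 0 higher of 19 on the deposited scale. Of all features 38 percent were called lower and 41.1 percent higher in that contrast.

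Markers of tissues were summed beside these results. Summed RPKM of 11 meristem markers was 18.9 to 23.1 in WT at 22 °C, 22.4 to 25.1 in WT at 27 °C, 19.2 to 22.9 in vil1, 14.2 to 18.2 in arp6 and 17.8 to 19.4 in arp6vil1, and 1 marker was at 0 in arp6. In warm WT 1 of the 10 tested was higher and 0 lower, against 16.9 percent of all features higher and 3.61 percent lower. In arp6 2 were higher and 7 lower, against 20.6 percent of all features higher and 61.8 percent lower. Summed RPKM of 7 stomatal lineage markers lay between 15.3 and 20.9 in all libraries. The 6 leaf markers summed to 25035 to 25467 in WT at 22 °C and 14334 to 14784 at 27 °C, and the 8 root markers to 25.4 to 39.6 and 19.2 to 26.0. Most of the leaf sum is CAB1 and LHCB2.1, which fell in warm WT (-1.10 and -0.98), where RCA rose (0.71) and the other 3 did not pass. In arp6 3 of the 6 were lower, against the same 61.8 percent of all features, and PORB rose (1.37). In arp6 the leaf markers summed to 14693 to 15165 and the root markers to 29.7 to 30.4. The part of tissue makeup in the changes of the 10 genes was not tested.

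The features whose profile over the 12 libraries was most like the mean profile of the 10 genes, among 13694 with a mean of 5 RPKM or more, were UKL2, ACLA-2, ABCI21, PUT2, AT1G35780, AT1G67300, AT4G25870 and PPa4. Their Pearson r with that profile ran from 0.941 to 0.952, a description over libraries that share groups and scaling. With the 8 WT and vil1 libraries alone the closest was KCS4 (r = 0.987). The likeness to SYP111 alone was led by ANNAT2 (r = 0.971) and held the beta-tubulin gene TUB7 (r = 0.967), which averaged 29.9 RPKM in WT at 22 °C, 45.3 at 27 °C, 70.8 in arp6 and 14.8 in arp6vil1. Among the 10 genes themselves, SYP111 and CDC20.1 had r = 0.959, CYCB1;2 and CYCB1;4 0.968, and CDKB1;1 and CDKB2;1 -0.837.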

How the data were processed

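The authors deposited 1 table of RPKM per gene for 12 RNA-seq libraries, already scaled to depth. The submitters' processing notes name FastQC, HISAT2, Bowtie2, SAMtools, bedtools and edgeR with TAIR10, and do not tie them to a data type. RPKM times genomic span and an inferred depth gave whole reads (tolerance 0.02) for 99.95 to 99.96 percent of the values of each library. These shares are over 32548 features with a known span, and the spans therefore include introns. In 32532 of these features the values of all 12 libraries gave whole reads. Gene names, genomic spans and the overlaps between genes came from a TAIR10.1 RefSeq table.

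The test was limma 3.58.1 in R 4.3.3 on log2(RPKM + 1), with 1 mean per group over all 12 libraries, a variance trend and Benjamini-Hochberg adjustment over the 31454 features with 2 or more libraries at RPKM 1 or above. An adjusted p under 0.05 was a call. Fold changes on this scale understate those of low genes. Alternatives were other pseudocounts (0.1 and 5), other filters (none, or a mean RPKM of at least 5), median centring, quantile normalization, removal of the gene-length trend, only the groups compared, the replicate number as a block, voom on recovered reads, and leaving out each library. Added after seeing the data were subtraction of each library's 10th percentile of coding genes, and the WT and vil1 libraries alone. Groups of 2 libraries are too few for a permutation test to pass. The code was tested on simulated data.

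The 10 genes and the lists were chosen with earlier results of these data known. All 10 genes are named. From each list, genes are named only among the 4 smallest adjusted p that reach a group mean of 5 RPKM. The 8 features most like the set were taken by Pearson r among features of mean RPKM 5 or more. Listed loci that did not match their name (3) were dropped, leaving 171.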

Additional observations from a re-analysis of the deposited data

Results flagged for a closer look

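Losing ARP6 had a different effect in vil1 plants than in WT plants for 8 of the 10 genes, by the test of the difference itself (limma, adjusted p under 0.05). The difference of log2 changes was -2.14 for SYP111, -1.79 for CDC20.1, -1.37 for CDKB2;1, -0.86 for CYCB1;2, -0.55 for CYCB1;4 and -0.49 for CDKB2;2, and it was 0.70 for CDKB1;1 and 0.57 for CYCB2;1. The same test passed for 42.5 percent of all features in the higher and 32.7 percent in the lower direction. The count of 8 in either direction is thus near the share of all features and says nothing particular about these genes. By direction, 6 were lower and 2 higher, and the median of the 10 genes was -0.52 against 0.30 for all features. Whether the 10 genes differ as a set from other features was not tested. NPQ1, which shares part of the SYP111 span, was at -3.27 in the same test. The call for CYCB2;1 held in 6 of 10 other settings and in 3 of 12 that left out 1 library, that for CDKB2;2 in 7 of 10 other settings and that for CYCB1;4 in 8 of 10. The median coding gene of arp6vil1 stood at 1.79 to 1.94 RPKM, against 3.34 to 4.97 in the other libraries, and the part of this in the differences was not tested.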

How the results depend on the processing

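All 60 changes of sign that involved a call lay in contrasts with arp6 or arp6vil1, and their cause was not tested. Under quantile normalization arp6 against WT gave 0.33 for CYCA1;1, 0.47 for CYCB1;1, 0.40 for CYCB2;1, 0.075 for CDKB1;1 and 0.48 for CDKB2;2. The last gave 0.36 under median centring, 0.34 with the length trend removed and 0.43 with background subtracted, CDKB1;1 gave 0.14 with the length trend removed and CYCB2;1 0.16 with background subtracted. For arp6vil1 against WT, quantile normalization called 7 genes, all higher. These were CDKB1;1 (0.99), which did not change sign, and 6 of the 8 that did, with 0.78 for CYCA1;1, 0.77 for CYCB1;2, 0.76 for CYCB1;4, 0.33 for CYCB2;1, 0.46 for CDKB2;1, 0.18 for CDKB2;2, 0.28 for SYP111 and 0.83 for CDC20.1, where CDKB2;2 and SYP111 did not pass. Median centring called 8, all higher. The values that changed sign were, in the same order, 0.69, 0.68, 0.67, 0.63, 0.39, 0.22, 0.24 and 0.70, and 0.16 for CYCB1;1, where SYP111 and CYCB1;1 did not pass and CDKB1;1 (0.93) did. Without the length trend the values were 0.54, 0.50, 0.48, 0.46, 0.19, 0.043 and, for CDC20.1, 0.56. For arp6vil1 against vil1, quantile normalization gave 0.56 for CYCB1;2, 0.55 for CYCB1;4, 0.22 for CDKB2;1, 0.095 for CDKB2;2 and 0.28 for CDC20.1. Median centring gave 0.60, 0.60, 0.22, 0.23 and 0.25 for these, 0.24 for CYCB1;1 and 0.69 for CYCB2;1. Without the length trend they were 0.46, 0.43, 0.022, 0.070 and 0.18, with 0.10 for CYCB1;1 and 0.56 for CYCB2;1. For arp6vil1 against arp6, CYCA1;1 gave 0.45 (quantile), 0.47 (centring) and 0.44 (length trend), and CYCB2;1 -0.077 (quantile) and -0.20 (background subtracted). The difference of ARP6 effects for CYCB2;1 was -0.16 (quantile) and -0.22 (background subtracted). With a mean RPKM of 5 or more only SYP111 is tested, so the count is 1 in all 7 contrasts that had calls. For vil1 against WT at 27 °C the count of 2 was 1 with a pseudocount of 0.1, quantile normalization, the replicate block, background subtracted or WT and vil1 libraries alone, and 0 under median centring, without the length trend or with only those 2 groups. The replicate block changed no other count by over 1.5 times. Same-numbered deviations correlated at -0.249 to 0.220 over 15 pairs of groups, the highest between WT at 22 and at 27 °C. Such correlations cannot settle whether the replicate numbers pair the libraries. Leaving out 1 library gave 0 to 2 calls for the difference of warm responses, 0 to 1 for vil1 against WT at 22 °C and 0 to 2 at 27 °C. CYCB2;1, at 71 to 326 reads per library, has the least depth behind it.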

Other observations

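CDKB2;2 in warm WT gave 3.45 and 3.17 RPKM, above each of the other 10 libraries (1.32 to 2.89), without passing the test against WT at 22 °C (adjusted p = 0.175). The replicative histone genes were lower at 27 °C than at 22 °C in both genotypes by group mean, unlike SYP111 and CDC20.1 in WT. HTR2 averaged 38.4 RPKM at 22 °C and 26.3 at 27 °C in WT, and 45.4 and 33.4 in vil1, and passed in both (limma, log2 changes of -0.53 and -0.43). HTR1 averaged 59.9 and 48.5 RPKM in WT, where it passed, and 70.0 and 56.3 in vil1, where it did not. Whether these changes differ between genotypes was tested across all features, and 0 of 31454 passed.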
